A study of Mus musculus with 3 samples.

Results

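Proximal H3K4me1 enriched regions outside protein-coding genes were examined in cytokine treated mouse islets. These were regions that held no transcription start site (TSS) of a protein-coding gene, whose midpoint lay over 2 kb and up to 20 kb from the nearest such TSS and outside the span of every protein-coding gene. On chromosomes 1 to 19, 6354 of 65124 regions met this rule, which is 9.76% (95% exact binomial interval 9.53% to 9.99%). They are called members below. They were chosen by position alone, and covered 11.1 Mb, or 7.97% of the length covered by all regions on these chromosomes.

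The study asked how the cytokines that immune cells release in type 1 diabetes change chromatin and gene expression in islets, the endocrine cell clusters of the pancreas. The islets came from CD1 mice of 8 to 12 weeks, recovered for 4 to 6 h after isolation, and were cultured in RPMI for 4 days with IFNγ at 1.6 ng/ml, IL-1β at 0.25 ng/ml and TNFα at 0.16 ng/ml. The labels name no genetic alteration, islets hold several endocrine and other cell types, and DNA from several ChIP experiments was pooled into 1 H3K4me1 library. Untreated islets and the RNA-seq of both conditions were not analysed here, so no value below says what the cytokines changed. With 1 library no difference could be tested. Intervals cover counting error only, and the spread between the 19 chromosomes is given in place of a replicate error.

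Histone 3 monomethylated at lysine 4 marks enhancers, stretches of DNA that bind transcription factors and raise the transcription of a gene at a distance. The mark is laid down by methyltransferases of the trithorax group, is found at active and at poised enhancers, and flanks the start sites of active genes. Enhancers near a gene can lie upstream of its TSS, in its introns or past its end, and those in the sequence between genes can serve either neighbour. For this reason the gene with the nearest TSS is used below as an address and not as a target.

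The central 300 bases of the widest member at 10 genes are printed to show what such a region holds, 5 at genes of the cytokine response and 5 at genes of β-cell identity and function. All are from the plus strand of mm9. Capitals mark matches, on either strand, to the short motifs whose letters are given with the motif shares below. Ccl20 encodes a chemokine that attracts lymphocytes and dendritic cells, Cxcl1 a neutrophil attractant, Nfkbia the inhibitor IκBα of NF-κB, Irf1 a transcription factor induced by IFNγ, and Socs3 an inhibitor of Jak-Stat signalling. Pdx1, Mafa, Nkx6-1 and Foxa2 encode transcription factors of β-cells and their precursors, and Slc30a8 the zinc transporter of insulin granules.
Ccl20 (chr1:83116451-83116750): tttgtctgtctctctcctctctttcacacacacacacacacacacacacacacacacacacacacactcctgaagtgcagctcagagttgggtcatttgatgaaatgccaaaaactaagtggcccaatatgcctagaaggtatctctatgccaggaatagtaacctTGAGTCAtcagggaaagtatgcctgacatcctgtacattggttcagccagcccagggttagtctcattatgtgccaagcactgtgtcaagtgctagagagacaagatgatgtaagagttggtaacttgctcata
Cxcl1 (chr5:91309351-91309650): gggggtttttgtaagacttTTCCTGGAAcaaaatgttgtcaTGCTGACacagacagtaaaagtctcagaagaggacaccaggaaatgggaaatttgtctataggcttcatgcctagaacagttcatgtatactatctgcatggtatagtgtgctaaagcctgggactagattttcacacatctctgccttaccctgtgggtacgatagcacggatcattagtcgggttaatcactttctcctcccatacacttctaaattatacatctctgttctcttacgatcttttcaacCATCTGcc
Nfkbia (chr12:56574551-56574850): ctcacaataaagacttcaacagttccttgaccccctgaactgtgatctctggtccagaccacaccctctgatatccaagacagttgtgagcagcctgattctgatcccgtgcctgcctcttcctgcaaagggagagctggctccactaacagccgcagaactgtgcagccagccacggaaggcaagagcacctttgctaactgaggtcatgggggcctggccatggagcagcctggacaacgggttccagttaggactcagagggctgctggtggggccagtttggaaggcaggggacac
Irf1 (chr11:53576951-53577250): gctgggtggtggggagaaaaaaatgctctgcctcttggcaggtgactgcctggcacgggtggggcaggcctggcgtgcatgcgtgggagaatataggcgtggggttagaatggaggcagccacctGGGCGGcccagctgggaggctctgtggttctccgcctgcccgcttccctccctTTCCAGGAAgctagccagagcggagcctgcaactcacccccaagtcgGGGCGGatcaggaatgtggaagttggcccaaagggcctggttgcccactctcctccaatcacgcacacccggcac
Socs3 (chr11:117824051-117824350): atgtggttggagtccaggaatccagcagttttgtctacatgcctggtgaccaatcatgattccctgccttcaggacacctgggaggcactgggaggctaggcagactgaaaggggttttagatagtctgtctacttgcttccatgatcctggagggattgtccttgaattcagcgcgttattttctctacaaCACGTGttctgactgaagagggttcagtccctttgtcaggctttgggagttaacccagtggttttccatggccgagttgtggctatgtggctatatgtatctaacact
Pdx1 (chr5:148075351-148075650): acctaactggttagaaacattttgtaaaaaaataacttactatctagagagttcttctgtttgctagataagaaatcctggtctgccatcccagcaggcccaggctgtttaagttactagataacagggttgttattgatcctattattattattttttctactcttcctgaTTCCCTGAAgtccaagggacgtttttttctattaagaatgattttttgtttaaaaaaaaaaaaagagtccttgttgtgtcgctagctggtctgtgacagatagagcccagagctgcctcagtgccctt
Mafa (chr15:75575451-75575750): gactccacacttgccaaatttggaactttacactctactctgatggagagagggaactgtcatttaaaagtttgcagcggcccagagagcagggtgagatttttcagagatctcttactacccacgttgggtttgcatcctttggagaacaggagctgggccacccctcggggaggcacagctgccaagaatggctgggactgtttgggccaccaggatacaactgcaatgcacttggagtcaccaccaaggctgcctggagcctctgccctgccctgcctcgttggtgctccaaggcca
Nkx6-1 (chr5:102076151-102076450): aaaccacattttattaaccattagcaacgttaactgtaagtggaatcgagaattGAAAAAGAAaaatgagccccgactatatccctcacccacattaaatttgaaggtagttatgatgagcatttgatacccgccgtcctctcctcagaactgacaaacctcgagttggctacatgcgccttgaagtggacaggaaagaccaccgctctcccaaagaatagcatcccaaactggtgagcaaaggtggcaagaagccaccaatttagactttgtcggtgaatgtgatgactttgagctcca
Foxa2 (chr2:147857251-147857550): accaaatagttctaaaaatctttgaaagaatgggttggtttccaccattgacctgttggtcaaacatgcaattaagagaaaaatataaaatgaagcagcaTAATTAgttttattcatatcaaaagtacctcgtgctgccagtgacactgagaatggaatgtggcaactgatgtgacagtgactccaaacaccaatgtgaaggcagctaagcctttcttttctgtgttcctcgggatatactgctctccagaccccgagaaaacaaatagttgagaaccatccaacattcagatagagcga
Slc30a8 (chr15:52111251-52111550): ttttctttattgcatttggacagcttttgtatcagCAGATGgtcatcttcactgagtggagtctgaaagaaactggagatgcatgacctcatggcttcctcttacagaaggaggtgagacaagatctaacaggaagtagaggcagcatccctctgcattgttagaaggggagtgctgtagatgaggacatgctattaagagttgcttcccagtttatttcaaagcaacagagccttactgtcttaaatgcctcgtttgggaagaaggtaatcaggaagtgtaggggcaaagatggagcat

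The centre at Ccl20 held an AP-1 site, that at Cxcl1 a STAT site with a Maf core and a Neurod1 E-box, that at Irf1 a STAT site with 2 GC boxes, and that at Socs3 a Myc E-box. The centre at Pdx1 held a STAT site, that at Nkx6-1 an ISRE core, that at Foxa2 a homeodomain site and that at Slc30a8 a Neurod1 E-box. Those at Nfkbia and Mafa held no match to these motifs in these 300 bases. The GC content of the 10 sequences ran from 37.3% at Pdx1 to 64.0% at Irf1. A match is a string of letters and not a measured binding event.

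Members were sparser and narrower than proximal regions inside protein-coding genes. Sequence that the rule covers, outside protein-coding genes and 2 to 20 kb from the nearest TSS, came to 272.1 Mb and held 23.4 members per Mb. The same distances inside protein-coding genes held 14878 regions in 373.9 Mb, or 39.8 per Mb, 1.7 times as many. The density was lower outside genes on 19 of 19 chromosomes, where members ran from 16.0 per Mb on chromosome 7 to 34.3 on chromosome 11 and the regions inside genes from 32.9 to 44.7. Regions outside genes and over 20 kb up to 100 kb from a TSS, 8536 in number, stood at 20 per Mb, and members were denser than these on 16 of 19 chromosomes.

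Most members were short stretches of a few bins of the 200 bp grid on which regions were called. Their median width was 1200 bp (quartiles 600 and 2200 bp), against 1400 bp (800 to 3000 bp) inside genes and 1000 bp (600 to 2000 bp) farther out. The median was lower than inside genes on 19 of 19 chromosomes. Members wider than 10 kb numbered 58 (0.913%), against 2.55% inside genes and 0.597% farther out, and 180 members (2.83%) were a single bin. Regions of any class covered 4.43% of the sequence open to members, 11.6% of the sequence inside genes and 3.3% of that farther out.

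Members had a higher median GC content than both other groups. The median GC content was 47.3%, against 44.9% inside genes, where it was lower on 19 of 19 chromosomes, and 46.4% farther out, where it was lower on 14 and higher on 4. A CpG dinucleotide is the site of DNA methylation and is depleted in most of the mouse genome outside CpG islands. Members had a median of 0.227 times the CpG number given by their base composition, against 0.202 inside genes and 0.224 farther out, and were higher than the latter on 9 chromosomes and lower on 10. At 225 members (3.54%) this ratio exceeded 0.6, against 1.63% inside genes and 2.4% farther out. These 225 CpG-rich members had a median width of 800 bp and a GC content of 56.0%. Of them, 19 (8.44%) held the annotated start of a non-coding gene, against 167 of the 6129 other members (2.72%).

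The density of member midpoints hardly changed with distance from the TSS, but the share of open sequence under a region of any class fell. From 2 to 4 kb to 18 to 20 kb this share fell from 5.84% to 3.97% upstream and from 6.0% to 3.74% downstream. In steps of 2 kb the density was 23.2 members per Mb at 2 to 4 kb, between 22.7 and 23.9 in the next 7 steps, and 22.8 at 18 to 20 kb. The nearest step was denser than the farthest on 10 of 19 chromosomes. The number of members fell from 891 to 512 over these steps because the sequence open to them fell from 38.4 to 22.5 Mb. Inside genes the density was 43.8 per Mb at 2 to 4 kb and 37.8 at 18 to 20 kb, and the median width was 1800 and 1400 bp in these steps, against 1200 and 1000 bp for members. The median distance of a member was 9.57 kb, with quartiles of 5.52 and 14.2 kb.

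Upstream and downstream sides had similar densities. Of the members, 4533 (71.3%, 70.2% to 72.5%) lay upstream of the nearest TSS, and upstream sequence made up 70.5% of the sequence open to them. The density was 23.6 per Mb upstream and 22.7 downstream, and the upstream side was the denser on 10 of 19 chromosomes. The midpoint of a downstream member lies past the end of its gene, so the genes nearest to downstream members had a median length of 7.7 kb, against 25.2 kb for those nearest to upstream members and 15.5 kb for all protein-coding genes. Downstream members lay a median of 4.6 kb past the gene's end.

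The density was higher where a region outside the members marked the nearest TSS. Where a region outside the members covered the nearest TSS, the sequence held 2095 members at 29.9 per Mb. Where such a region lay within 2 kb of the TSS without covering it, it held 1982 at 34.2 per Mb, and where neither was the case 2277 at 15.8 per Mb. Sequence near a covered TSS was the denser on 19 of 19 chromosomes, with 20.1 to 35.6 members per Mb. Near a TSS with no region outside the members within 2 kb the density ran from 7.78 to 28.5. The edge of a member can itself lie within 2 kb of such a TSS, as at Irf1 (116 bp). TSS of this kind accounted for 53.0% of the sequence and 35.8% of the members. Depth and the ease of placing reads can vary along the genome with both kinds of region, and their part was not tested.

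**Figure D1:**
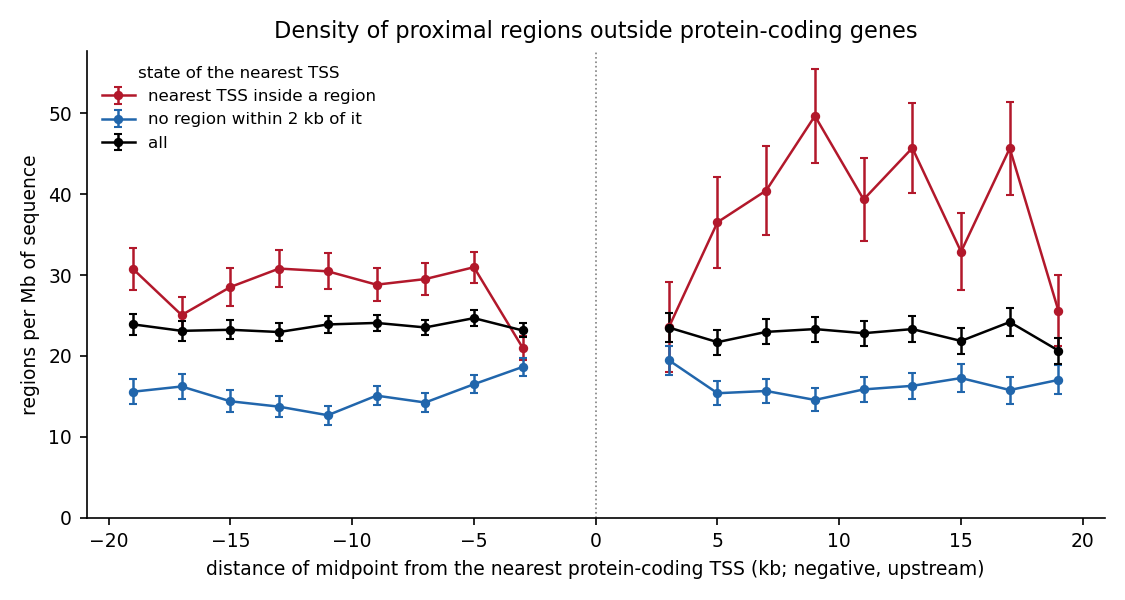
Members per Mb of sequence (vertical axis) in steps of 2 kb by the signed distance of the midpoint from the nearest protein-coding TSS (horizontal axis, kb; negative, upstream), for all members and by the state of that TSS, with bars for the square root of the count. All members together stay between 20.7 and 24.6 per Mb. Those near a TSS covered by a region lie above those near a TSS with no region outside the members within 2 kb at every step. The gap is smallest at 2 to 4 kb, where more of the sequence near a covered TSS lies in a region.

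The contrast was wider on the downstream side. Past the end of a gene whose TSS was covered, the density was 38.6 members per Mb (460 members). It was 16.3 (946 members) where no region outside the members lay within 2 kb of the TSS. Upstream of a covered TSS it was 28.1 per Mb. In the plot by distance the values near a covered TSS were lowest beside the TSS, at 21.0 per Mb upstream at 2 to 4 kb. In this step regions of any class covered 8.94% of the sequence upstream and 22.2% downstream, against 5.15% and 5.79% at 18 to 20 kb. No member can have its midpoint in a region of another class, and the part of this in the low values was not tested. Downstream of a covered TSS the steps held 18 to 72 members each and ran from 23.5 to 49.8 per Mb.

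The gap to the next region of any class was also shorter than farther out. Its median was 4600 bp for members, 3200 bp inside genes and 7600 bp for regions outside genes over 20 kb from a TSS. Another region lay within 5 kb of 53.0% of members, 65.8% of regions inside genes and 37.3% of those farther out. Counting every other region, the nearest TSS was covered or within 2 kb of one for 66.4% of members (65.2% to 67.5%), 62.2% of regions inside genes and 66.7% of those farther out.

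The density also varied with the space between the neighbouring genes. A space can be flanked by 2 starts (divergent genes), 2 ends (convergent) or a start and an end (tandem). Divergent spaces held 2039 members at 24.9 per Mb, tandem spaces 3329 at 21.9 and convergent spaces 983 at 26.3. Divergent spaces were denser than tandem ones on 15 of 19 chromosomes but denser than convergent ones on 8 of 19. By length, spaces of up to 10 kb held 530 members at 32.7 per Mb, those of 10 to 30 kb 1823 at 24.7, those of 30 to 100 kb 2570 at 22.5, and longer ones 1428 at 21.1. The density thus fell with the length of the space at each step.

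Members were shared out among 4276 spaces between genes. In 2864 of these a member stood alone, and the other 1412 held 2 or more each and 3490 members (54.9%) together. The most, 8, lay in the 88.8 kb between Ppp1r13b, whose product binds p53, and 2010107E04Rik. The 51.5 kb between Gm10858 and Gtf3a, the gene of transcription factor IIIA, held 7. Spaces with 6 lay between Srsf3 and Cdkn1a, which encode a splicing factor and the cell cycle inhibitor p21, between Zfp654 and Cggbp1, between Cysltr2 and Rcbtb2, and between Rhpn1 and Mafa.

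The midpoint of 5899 members (92.8%) lay in no annotated gene of any kind, close to the 95% of the open sequence that lies in none, at 22.8 per Mb. The midpoint of 262 members lay in a lincRNA gene, a long non-coding transcript between protein-coding genes, at 38.6 per Mb, and of 176 in a processed transcript, at 35.0 per Mb. Pseudogenes held 16, at 10.5 per Mb. Members that reached with an edge into a protein-coding gene numbered 293 (4.61%).

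The annotated start of a non-coding gene lay in 186 members (2.93%), a share not given here for the other classes. These starts belonged to 61 lincRNA, 59 processed transcript, 30 snoRNA, 21 pseudogene, 17 snRNA and 15 miRNA genes, besides 5 of other small RNAs and 3 of rRNA type. A member can hold several of them. For short RNAs and pseudogenes such a start need not be a start of transcription. The widest member with an miRNA gene, 11.2 kb (chr17:56380601-56391800), held Mir7b and lay 10 kb upstream of Fem1a. A member of 5.4 kb (chr7:86031001-86036400) upstream of Aen held Mir7-2, and a member of 10.2 kb with its midpoint past the end of Vmp1 held Mir21. These were named after their positions were seen. Of the 15 miRNA genes, 7 matched RefSeq by symbol. The 5p arms of the miR-7 genes, which are abundant in endocrine cells, are shown because they share a seed, bases 2 to 8, given in capitals.
mmu-miR-7a-5p: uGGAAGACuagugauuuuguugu
mmu-miR-7b-5p: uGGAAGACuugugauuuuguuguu

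By nearest TSS, members fell to 4558 of 21418 protein-coding genes, which is 21.3%, or 25.3% of the 18040 genes with any sequence the rule covers. Of these, 3208 had 1 member and 1350 had 2 or more, or 6.3% of all genes. The median over all genes was 0. Among the 8702 genes with a TSS covered by a region, 25.2% had a member, at 31.6 members per Mb, and among the other 12716 genes 18.6%, at 18.8 per Mb.

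At the top, 2 genes had 6 members and 13 had 5. Of the latter, the 8 with the largest covered length are named. Ddit4, a stress-induced inhibitor of mTOR signalling, had 6, which covered 13.2 kb on both sides of the gene from 2.18 to 18.5 kb. Ppp1r13b had 6 narrow ones, 400 to 2400 bp wide, all upstream. Gjd2, the gene of the β-cell gap junction protein connexin 36, had 5 with the largest covered length of the 10 named genes, 24.0 kb, with a widest member of 10.2 kb. Irf2bp2, a corepressor that binds Irf2, followed with 20.8 kb and Tpt1 with 16.8 kb. The others named were 3930402G23Rik, 1810011O10Rik, Srsf3, the sialyltransferase gene St3gal1, and Id2, which encodes an inhibitor of basic helix-loop-helix transcription factors, with 6.0 to 12.0 kb.

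The 5 widest members lay in spaces of different kinds. The widest, 24.4 kb (chr9:67610801-67635200), lay in the convergent space between C2cd4b and C2cd4a, with the TSS of M5C1000I18Rik nearest. A member of 21.4 kb (chr17:31010401-31031800) ended 6985 bp upstream of the TSS of Glp1r, the receptor of the incretin GLP-1. It filled much of the 26.6 kb between Dnahc8 and Glp1r, with 1.81 kb inside Dnahc8. At Btg2, an antiproliferative gene, 2.65 of 19 kb lay inside the gene. A member of 16.4 kb lay upstream of Tbc1d22a, and 1 of 16.0 kb spanned the 13 kb between Mcl1, an inhibitor of apoptosis, and Adamtsl4, with 2.98 kb inside these genes.

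Most genes of islet transcription factors had a member. Of the 23 annotated genes of the list, 15 (65.2%, interval 42.7% to 83.6%) had at least 1 and 9 had 2 or more, against 21.3% and 6.3% of all genes. The 30 members, with a median width of 1600 bp, stood at 61.9 per Mb. At Pdx1, an activator of the insulin gene, a member of 11.4 kb (chr5:148069801-148081200) ended 335 bp upstream of the TSS, and another of 7.8 kb, with 2.38 kb inside the gene, had its midpoint 9.57 kb downstream. Isl1, a homeodomain factor of endocrine cells, had 4, the widest of 12.8 kb, which ran across the gene's end with 5.92 kb inside the gene. Mafa, another activator of the insulin gene, also had 4, all past its end and within 19.7 kb of the TSS, the widest of 3.2 kb (chr15:75574001-75577200).

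The other factors with members spanned the range of widths. Pax6, a regulator of hormone genes, had 6.8 kb ending 453 bp from its TSS, Nkx2-2 6.2 kb ending 1022 bp upstream, and Nkx6-1 6.2 and 3.2 kb, both with midpoints past its end. Mnx1 had 3 members, St18 had 2, and Foxa1, Foxa2, Glis3, Insm1 and Myt1 had 1. Among the genes with none were Hnf4a, Neurod1, Neurog3, Pax4, Rfx3, Rfx6 and Sox9. Of these, Hnf4a, Neurog3, Rfx6 and Sox9 had a TSS covered by a region of another class. For Neurod1 and Neurog3 no sequence was open to members, so their count of 0 carries no information.

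**Figure D2:**
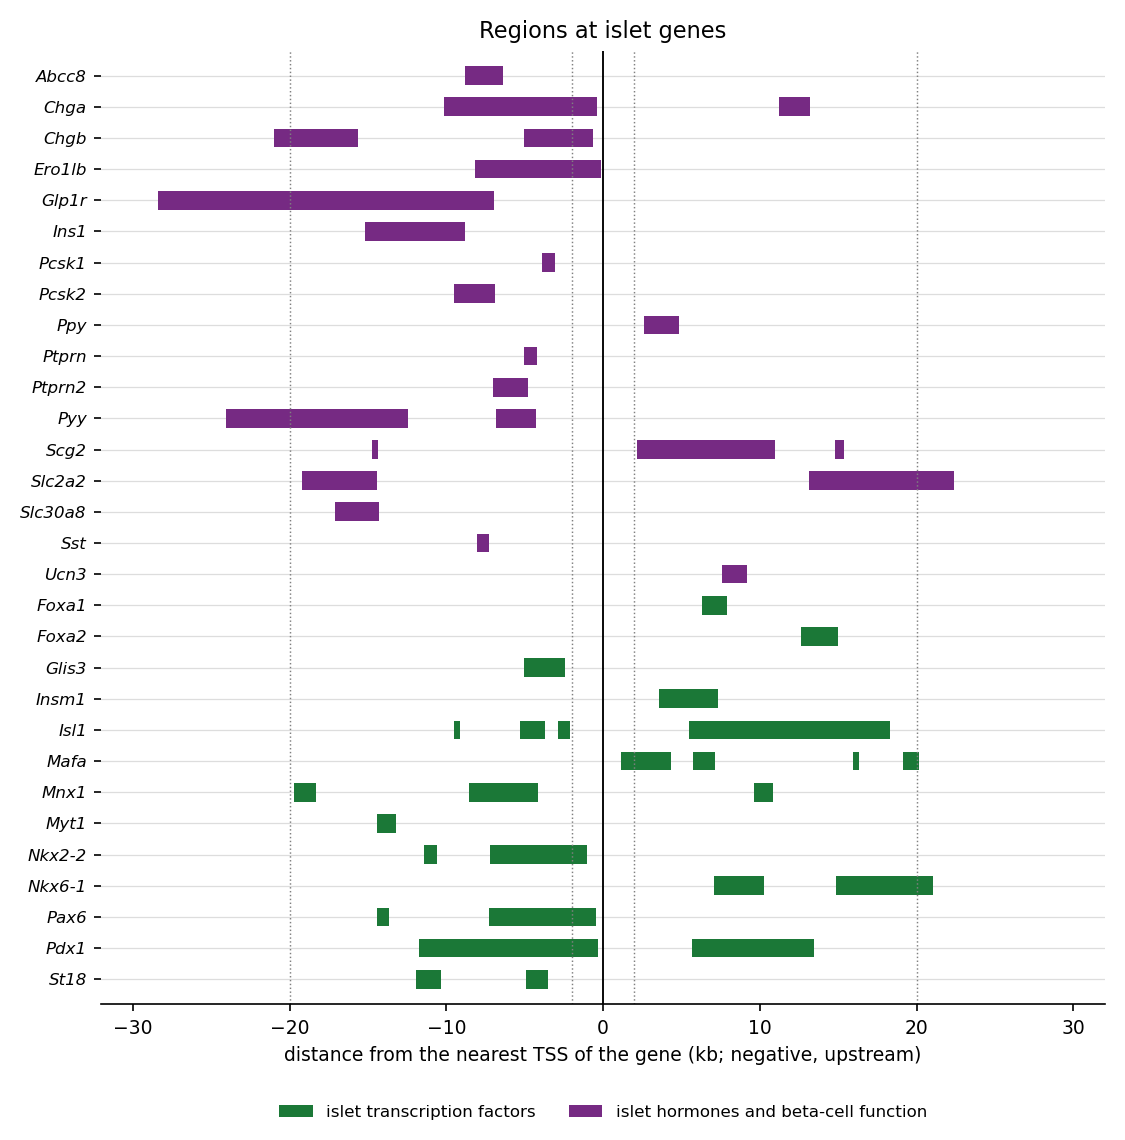
Members at islet genes, each bar drawn to scale from the start to the end of a member by distance from the gene's nearest TSS (horizontal axis, kb; negative, upstream), with dotted lines at 2 and 20 kb; purple, islet hormones and β-cell function; green, islet transcription factors. The widest bars are those of Glp1r (21.4 kb), Isl1 (12.8 kb), Pyy (11.6 kb) and Pdx1 (11.4 kb), and the bars of Pdx1, Pax6, Chga and Ero1lb end close to the TSS.

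Genes of islet hormones and β-cell function had members of greater median width. Of 26 genes, 17 (65.4%, 44.3% to 82.8%) had a member, against 21.3% of all genes. The 23 members stood at 53.4 per Mb with a median width of 2600 bp. At Pyy, a peptide hormone gene, members of 11.6 and 2.6 kb lay upstream. Chga, the gene of the granule protein chromogranin A, had 9.8 kb ending 379 bp upstream of its TSS and 2.0 kb past its end. The glucose transporter gene Slc2a2 had 9.2 kb past its end and 4.8 kb upstream, and Scg2, another granule protein gene, had 8.8 kb across its end with 3.16 kb inside the gene. Ero1lb, which encodes an oxidase of protein folding, had 8.0 kb ending 150 bp from its TSS. Ins1 had a member of 6.4 kb located 12.0 kb upstream, whereas Ins2, with 22.4 kb open to members, and Gcg, with 21.6 kb, had none. A region of another class covered a TSS of Ins2 but no TSS of Ins1 or Gcg. The annotated span of Ins2, chr7:149864561-149885415, is also longer than that of Ins1, chr19:52338813-52339946, and sequence inside it is not open to members.

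Members were also found at many genes of the cytokine response. Of 30 genes of cytokine signalling, 15 (50.0%, 31.3% to 68.7%) had a member and 11 had 2 or more, against 21.3% and 6.3% of all genes. The 30 members stood at 70.0 per Mb, the highest of the 11 lists, with a median width of 1500 bp. At Irf1 a member of 12.6 kb (chr11:53570801-53583400) ended 116 bp upstream of the TSS, and a second of 600 bp lay 14.6 kb upstream. Socs3 had 5.8 kb past its end and 11.2 kb across it, of which 2.41 kb lay inside the gene. Socs1, which acts on the same pathway, had 8.0 kb past its end and 3.6 kb across it, with 0.7 kb inside. Nfkbia had 3 members, with 4.6 kb past its end and 4.0 kb across it, of which 1.6 kb lay inside.

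Other genes of these pathways mostly had narrower members. Tnfaip3, which restrains NF-κB, had 4 of 1200 to 1800 bp, 2 on each side of the gene. Ifngr2, a chain of the IFNγ receptor, had 3 of up to 1000 bp, and the TNF receptor gene Tnfrsf1a 1 of 2200 bp. The kinase genes Jak1 and Jak2 had 2 each, Nfkb1 and Bcl3 2 each, and Rela and Stat3 1 each. Among the 15 genes without a member were Nfkb2, Relb, Irf7, Ifngr1, Il1r1 and Nos2, the inducible nitric oxide synthase gene. Nos2 and Il1r1 had 18 kb open to members and Relb 0.2 kb. Each of these genes had a TSS covered by a region of another class.

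Chemokine and cytokine genes had members of up to 5.6 kb. Of 23 genes, 12 (52.2%, 30.6% to 73.2%) had at least 1 and 4 had 2 or more, against 21.3% and 6.3% of all genes. The 18 members stood at 46.2 per Mb with a median width of 1400 bp. Csf1, the macrophage growth factor gene, had 3, the widest of 5.6 kb, and Ccl3 had 3, the widest of 4.2 kb, all downstream. Cxcl1 had members of 3.0 and 2.2 kb upstream (chr5:91308001-91311000 and chr5:91313401-91315600). Ccl20 had 1 of 1.6 kb past its end (chr1:83115801-83117400), at 3.25 kb from the TSS. Ccl2 had 1 of 1.6 kb at 19.9 kb upstream, just inside the limit of the rule, and Cx3cl1 had 2, while Ccl5, Cxcl5, Cxcl12, Il15, Il33 and Tnf had 1 of up to 1200 bp. Cxcl2, Il1b and Il6 had none in 15.9, 35.3 and 31.2 kb of sequence, and Cxcl10 had none with 0.0 kb open. A region of another class covered a TSS of Cxcl2, Il1b and Cxcl10 but no TSS of Il6.

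**Figure D3:**
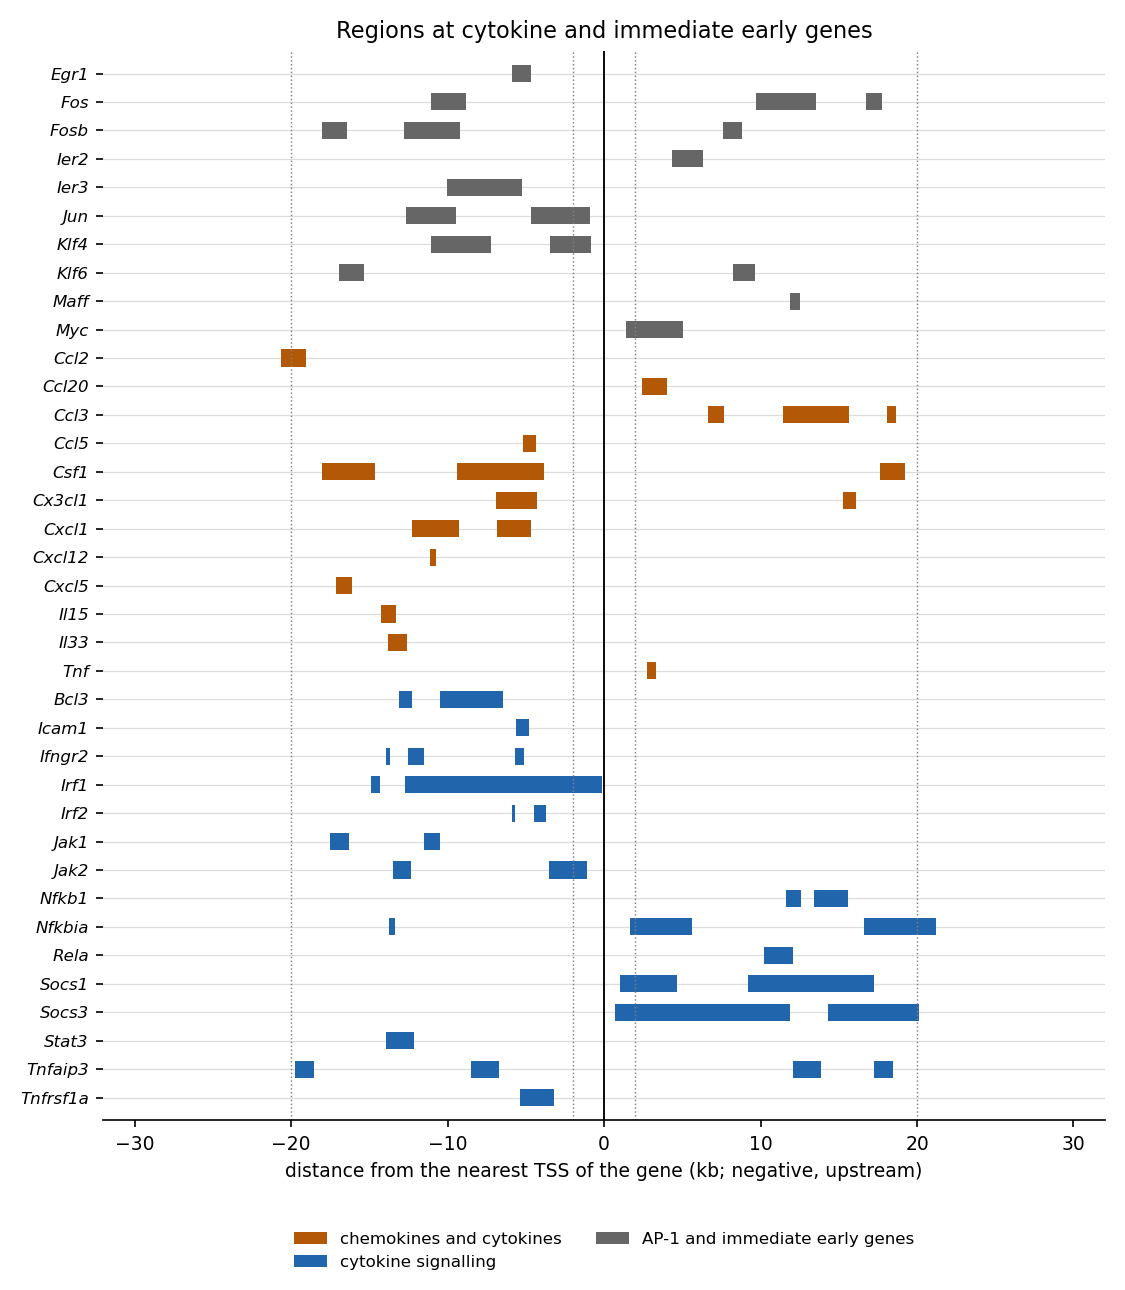
Members at genes of the cytokine response and at immediate early genes, each bar drawn to scale by distance from the gene's nearest TSS (horizontal axis, kb; negative, upstream), with dotted lines at 2 and 20 kb; orange, chemokines and cytokines; blue, cytokine signalling; grey, AP-1 and immediate early genes. The bars of Irf1 (12.6 kb) and Socs3 (11.2 kb) are the widest, and those of chemokine genes are all at or under 5.6 kb.

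AP-1 genes and other immediate early genes, most of them genes of transcription factors, respond within minutes to many signals. Of 18 genes, 10 (55.6%, 30.8% to 78.5%) had a member, against 21.3% of all genes, with 17 members at 52.9 per Mb and a median width of 2200 bp. Fos and Fosb had 3 each, and Jun, Klf4 and Klf6 had 2 each. Ier3 had the widest, 4.8 kb upstream, and the member of Myc, 3.6 kb (chr15:61820401-61824000), ran across the end of the gene. Atf3, Egr2 and Egr3 had none in 18, 19.6 and 24.3 kb, though each had a TSS covered by a region of another class.

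The remaining 6 lists give the range among other genes. Beside them, 21.3% of all genes had a member, or 25.3% of those with sequence open to members, and all open sequence held 23.4 members per Mb. Of the trithorax complex and H3K27 demethylase genes, which write H3K4 methylation and erase H3K27 methylation, 5 of 13 had a member (38.5%), among them Kdm6b with 3.6 kb, Mll3 with 2 and Mll1, Men1 and Wdr5 with 1. Of genes used in all cells 5 of 15 had 1 or more (33.3%), with 9 members at 61.7 per Mb of a small sequence of 0.146 Mb. Exocrine markers had a member at 5 of 14 genes (35.7%, 27 per Mb), endothelial and stromal markers at 3 of 12 (25%, 22.7 per Mb) and leukocyte markers at 2 of 15 (13.3%, 12.7 per Mb). Genes typical of hepatocytes, muscle and neurons had a member at 8 of 16 (50.0%, 38.1 per Mb), with a median width of 800 bp and none wider than 2000 bp.

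The lists differ in what was open to members, which bears on these shares. Genes of the 5 islet and cytokine lists had a median of 17.6 to 18.9 kb open to members, against 13.1 kb over all genes. Per length, the densities of the 5 islet and cytokine lists, 46.2 to 70.0 members per Mb, lay above the 31.6 of all genes with a covered TSS. So did those of the trithorax and H3K27 demethylase genes (60.0), the genes used in all cells (61.7) and the hepatocyte, muscle and neuron genes (38.1). The intervals of the 5 lists for the share with a member overlap that of the hepatocyte, muscle and neuron genes, and no difference between lists was tested. Among markers of other cells of the islet preparation, the acinar genes Cela3b, Ctrb1 and Ptf1a, the duct genes Krt7 and Krt19, the endothelial gene Flt1, the stromal genes Col1a1 and Col1a2 and the leukocyte genes Csf1r and Sfpi1 had members. Others, such as Cpa1, Prss1, Cdh5, Kdr, Ptprc and Cd3e, had none, as did most genes of any kind, though a region of another class covered a TSS of Kdr. The part of these other cells in the regions was not tested.

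**Figure D4:**
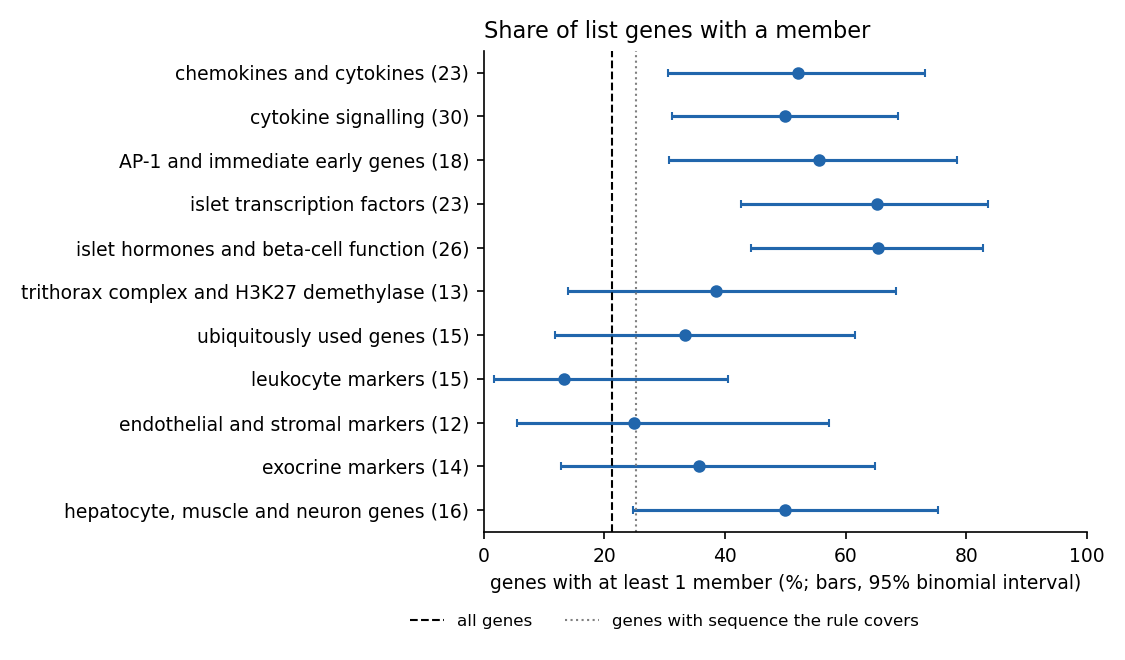
Share of genes with at least 1 member (horizontal axis, percent) for the 11 gene lists, with the number of annotated genes in parentheses and bars for 95% exact binomial intervals; the dashed line is the share of all genes (21.3%) and the dotted line that of genes with sequence the rule covers (25.3%). The 5 islet and cytokine lists lie between 50.0% and 65.4%, and the leukocyte markers lie lowest at 13.3%.

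Sequence motifs were counted in the 400 bp around the midpoint of each member, which reach beyond the 180 members of a single bin, and in 646621 windows of 400 bp without a region in the same sequence outside genes. Motifs were searched on both strands as exact letters, with N for any base, and a window counted once for each motif. The letters were GGGANTTTC for the NF-κB core, GAAANNGAA for the ISRE core bound by interferon regulatory factors, TTCNNNGAA for the STAT site, TGANTCA for the AP-1 site, TGACGTCA for the cAMP response element (CRE), TGTTTAC for the forkhead site, TAATTA for the homeodomain site, CAGATG for the Neurod1 E-box and TGCTGAC for the Maf core. They were GTTGCCATG for the RFX core, CACGTG for the Myc E-box, GGGCGG for the GC box, AGGTGGCAG for the CTCF core and TTCAGCACC for the REST core. Matches of different motifs can share bases, as those of the Maf core and the AP-1 site do over TGAC.

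Windows of members were richer in GC than unmarked ones, with medians of 47.5% and 43.0%, so the unmarked share is also given when weighted to the GC content of the members. AP-1 sites lay in 16.2% of members, against 11.4% of unmarked windows and 10.9% at the members' GC. Forkhead sites, bound by Foxa1 and Foxa2, lay in 7.57%, against 5.49% and 4.64%. RFX cores lay in 0.692%, against 0.415% and 0.456%. For each of these 3 the member share was the higher under both comparisons. It was not particular to members, as forkhead sites lay in 8.18% of proximal regions inside genes and 9.09% of regions outside genes farther out, AP-1 sites in 14.7% and 16.9%, and RFX cores in 0.578% and 0.879%.

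Some other motifs named here were also more frequent in members, with higher ratios before weighting than after it. The GC box was found in 11.3% of members against 3.76% of unmarked windows, or 7.31% at the members' GC. The CRE was found in 0.692% against 0.231% (0.317%), the Myc E-box in 7.18% against 4.17% (4.99%) and the CTCF core in 1.26% against 0.639% (0.942%). Maf cores were in 7.55% against 5.33% (6.39%). In proximal regions inside genes and regions outside genes farther out, Maf cores lay in 6.91% and 7.77% and CTCF cores in 1.03% and 1.25%. Myc E-boxes lay in 6.02% and 6.39% of these, GC boxes in 6.9% and 9.57%, and the CRE in 0.282% and 0.504%.

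Of the NF-κB, ISRE and STAT motifs, only the NF-κB core had a higher share in members under both comparisons. The NF-κB core lay in 1.84% of members (1.53% to 2.2%), against 1.43% of unmarked windows (1.46% at the members' GC). It lay in 1.3% of proximal regions inside genes (1.12% to 1.49%) and 1.73% of regions outside genes farther out (1.47% to 2.03%). The ISRE core lay in 13.4% of members, against 14.5% of unmarked windows but 11.7% at the members' GC. STAT sites likewise lay in 12.7%, against 13.8% but 11.7%, and homeodomain sites in 10.9%, against 11.7% but 7.69%. The direction for these last 3 thus turned with the weighting. The Neurod1 E-box lay in 31.1% of members, against 28.8% (29.8%), and the REST core in 0.456%, against 0.389% (0.461%).

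**Figure D5:**
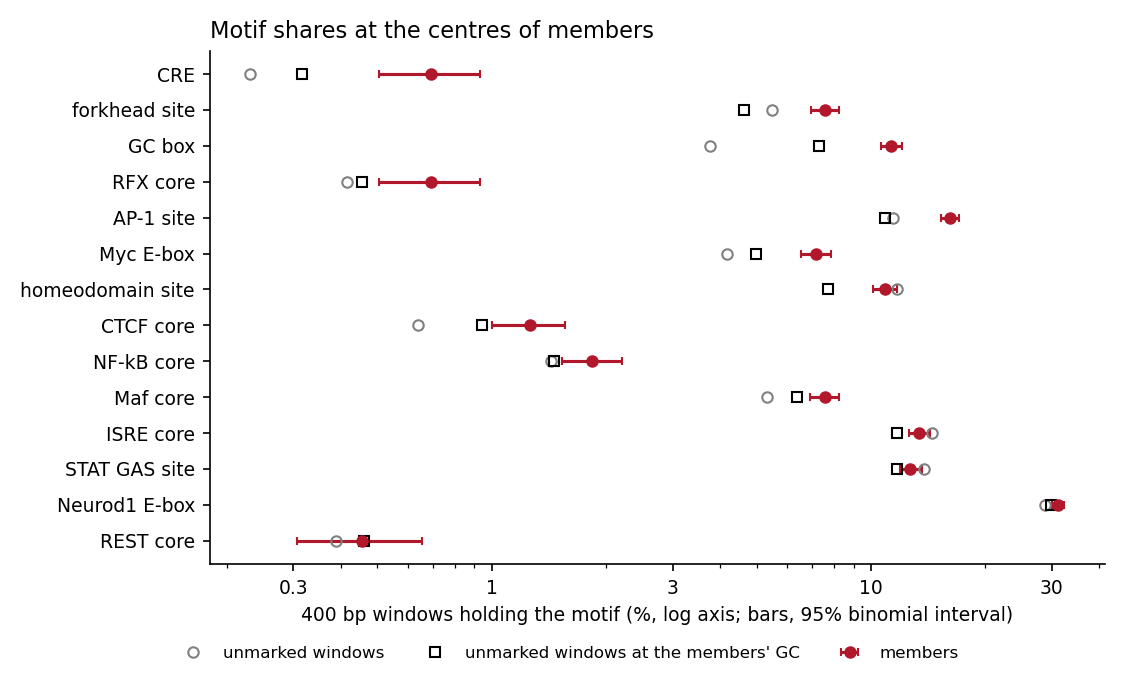
Share of 400 bp windows that hold each motif (horizontal axis, percent on a log scale) at the centres of members (red, with 95% exact binomial intervals), in unmarked windows (grey circles) and in unmarked windows weighted to the members' GC content (black squares), ordered by the ratio to the last. The red points of the CRE, the GC box and the AP-1 site lie to the right of both unmarked shares, and the interval of the REST core spans both.

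At the limits of the rule, values are given for regions outside genes whose midpoint lay within 200 bp of a limit. Beyond the 2 kb limit lay 88 members with a median width of 1900 bp, and short of it 111 regions with 1600 bp. At the 20 kb limit 45 members lay short of it with a median of 800 bp, and 56 regions beyond it with 1000 bp.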

How the data were processed

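The authors mapped the H3K4me1 reads to mm9, found enriched regions by means of ChromHMM, which assigns chromatin states to bins of the genome, and deposited the chromosome, start and end of each region, with no count, score or depth. The submitters' processing notes name Bowtie2 2.2.1, TopHat2 2.0.11 and Cufflinks 2.2.1. The version and settings of ChromHMM are not given in the sources used here. Whether the list precedes the study's merging of libraries and its filter on low values is also not given. The depth of the library is unknown, and a missing region can reflect depth, threshold or sequence to which short reads cannot be placed. The paper gives the mice as ICR and the labels as CD1, and its age range for the ChIP mice is narrower than that of the labels.

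Of 65709 deposited regions, 585 outside chromosomes 1 to 19 were left out. All starts and ends fell on the 200 bp grid. Starts were raised by 1 to count from 1. TSS and gene spans came from GENCODE M1 on the same build, with 67112 TSS positions of 21418 protein-coding genes, all transcripts included. Sequence open to members was counted at points every 100 bp with a called base. Intervals are exact binomial (Clopper-Pearson, 95%). The RNA-seq samples had no processed file among those used and were not analysed here.

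The members, gene lists and motifs were chosen with earlier results of these data known. Named were genes of 5 lists, the 10 genes with the most members, the genes at the 5 widest members and 12 genes for printed sequence, of which Neurod1 and Ins2 had no member. Genes named from the other 6 lists, miRNA genes and the fullest spaces were named after their values were seen. Some genes of the lists and a motif are not reported here by name. Cxcl11, annotated as a processed transcript, and list genes on chromosome X or absent from the annotation were not counted, and Glis3, with several gene records, was counted once. Mature miRNAs came from RefSeq (GRCm38.p6), of which no coordinates were used. Alternatives covered region width, merging, the point of measurement, the TSS set, gene overlap and both distances. The steps were tested on simulated data, and 1440 of 1440 simulated regions, 360 of 360 upstream sides and 300 of 300 planted motifs were recovered. Figures were drawn in matplotlib 3.10.9, and values computed in Python 3.11.15 with pandas 2.3.3, scipy 1.17.1 and numpy 2.4.6.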

Additional observations from a re-analysis of the deposited data

How the results depend on the processing

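Of 80 values (8 results under 10 alternatives), 40 stayed within the interval of the reported value or within 1.5 times the reported number, and 40 moved. The other settings change which regions or which sequence count, so the values shift by construction; the cause was not tested further.

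With regions of at least 1000 bp there were 3797 members, or 8.96% of regions, at 14 per Mb, with a median width of 1800 bp and GC content of 46.9%; 70.1% lay upstream, 58.9% had a TSS within 2 kb of another region, and 14.2% of genes had a member. With at least 400 bp the density was 22.7 per Mb and with merging over gaps of up to 1000 bp it was 22.4. From the nearest edge the share was 9.43%, the width 1000 bp, the density 22.6 per Mb and the share of genes 20.6%. With TSS of protein-coding transcripts alone, 9.34% of regions were members, 75.6% lay upstream, 69.7% had a marked TSS and 20.5% of genes had a member. With TSS of all genes these were 12.4%, 63.2%, 54.3% and 17.8%, at 20.3 per Mb and 47.0% GC. With no base inside a protein-coding gene the share was 9.31%, the width 1000 bp, 73.6% lay upstream, the density was 22.3 per Mb and 20.4% of genes had a member. With the midpoint outside every gene, 9.06% of regions were members and 20% of genes had one. Up to 10 kb there were 3344 members (5.13%), 75.1% upstream, 65% with a marked TSS and 13.5% of genes. Over 5 kb the shares were 7.67%, 69.0%, 67.9% and 17.5%.

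No paired analysis was possible because a single H3K4me1 library was analysed here, which also leaves no replicate to omit. The list holds no score, so no stricter threshold was applied. Repeats and mappability were not assessed.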
